A study of Mus musculus with 10 samples.

Results

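Mest and 9 further imprinted genes (H19, Igf2, Dlk1, Meg3, Peg3, Plagl1, Grb10, Ndn and Cdkn1c) were followed in C2C12 myotubes given Arrdc2. They are 10 of the 57010 genes of a deposited expression table and were found in it by gene identifier, each with 1 row. The list was drawn up with the difference between the groups already known, and Mest ranks first of 15223 tested genes by positive difference. The members' differences are therefore given as a description, without a test. C2C12 is a single mouse myoblast line, labelled wild type, that fuses into myotubes in low-serum medium. All cultures, controls included, grew on collagen, were differentiated for 3 days in medium with insulin, received an adenovirus that encodes Gfp, and were harvested 48 h later. The Arrdc2 group (5 libraries) received a virus encoding Arrdc2 as well as Gfp, and the GFP group (5 libraries) a virus with Gfp only. The sources used here do not name the promoter of the transgene or the dose of virus.

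An imprinted gene is transcribed mainly from the copy inherited from the mother or from the copy inherited from the father, according to DNA methylation laid down in the germ line. The imprinted gene network is a set of such genes whose levels rise and fall together across tissues, many of which govern growth before and after birth. Plagl1 and H19 have been described as regulators within it, and H19, Igf2, Dlk1 and Mest are known in muscle for high levels in embryonic or regenerating tissue. Reads here were not split by parental copy, so a level is the sum of both. Genes are called imprinted because they are on the lists used, and whether each is imprinted in these cells was not tested.

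Libraries held 18.93 to 28.65 M (mega) reads, as solved for from the deposited regularized log (rlog) values, and levels are given as normalised reads, that is reads divided by each library's size factor. Libraries are named by the number in their column. Whether the libraries of a group stem from separate cultures is not stated in the labels, and p-values cover only the spread between libraries, which may be technical. The mouse Arrdc2 gene (ENSMUSG00000002910.12) was at 90.4, 124.3, 109.2, 99.6 and 89.8 normalised reads in GFP libraries 3 to 7. It was at 128.3, 123.3, 158.3, 118.0 and 132.5 in Arrdc2 libraries 6, 7, 9, 10 and 11, a 1.29-fold difference of means (exact 2-sided permutation p = 0.0238). GFP library 4 lay above 2 of the Arrdc2 libraries. The sources used here do not say if reads of the transgene count towards this row.

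Mest has alternative promoters, and their sequences are shown because the gene's difference is the largest among the members. RefSeq (build GRCm38.p6, not the build of the expression table) gave windows from 250 bases before to 50 bases after a start for 8 of the 10 members, 15 windows in all. H19 and Cdkn1c were not matched. The upstream Mest window, on the plus strand at chr6:30733256-30733555, holds 8 CpG dinucleotides. The downstream one, also on the plus strand at chr6:30737800-30738099, holds 17, against a median of 7 over all 32851 windows of the table. It holds more than 68.6% of those windows, and windows of Grb10, Plagl1 and Igf2 hold up to 45, 26 and 24. The window of Peg3, on the minus strand at chr7:6730370-6730669, holds 13 CpG. It also holds the motif GGGGCCCC, which reads the same on both strands and is known as a binding motif of the Plagl1 protein. The motif is in 354 windows of the table (1.08%) and in no other of the 15 member windows, which does not bear on whether Plagl1 binds there. CpG dinucleotides are in capitals below, where unmethylated CpG-rich starts are typical of the active copy of an imprinted gene.
Mest, upstream start: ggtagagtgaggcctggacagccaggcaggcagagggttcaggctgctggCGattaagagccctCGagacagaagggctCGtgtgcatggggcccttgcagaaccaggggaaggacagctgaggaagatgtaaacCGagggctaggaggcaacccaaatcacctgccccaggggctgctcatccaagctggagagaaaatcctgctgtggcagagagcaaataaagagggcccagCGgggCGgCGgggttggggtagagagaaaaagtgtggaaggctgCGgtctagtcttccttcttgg
Mest, downstream start: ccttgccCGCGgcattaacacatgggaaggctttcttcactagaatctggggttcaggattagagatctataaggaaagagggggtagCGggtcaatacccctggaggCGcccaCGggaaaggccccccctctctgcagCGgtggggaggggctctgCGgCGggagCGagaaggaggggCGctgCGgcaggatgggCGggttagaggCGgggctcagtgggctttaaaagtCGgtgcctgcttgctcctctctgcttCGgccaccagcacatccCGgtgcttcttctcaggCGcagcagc
Peg3: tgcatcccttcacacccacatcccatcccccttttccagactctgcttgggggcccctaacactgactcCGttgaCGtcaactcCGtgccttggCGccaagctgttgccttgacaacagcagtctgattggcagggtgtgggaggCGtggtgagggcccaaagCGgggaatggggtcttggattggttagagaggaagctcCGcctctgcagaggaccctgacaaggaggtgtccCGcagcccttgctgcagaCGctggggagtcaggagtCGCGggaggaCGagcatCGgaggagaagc

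Mest and H19 also carry microRNAs inside their transcription units, miR-335 in an intron of Mest and miR-675 in H19. The mature forms are shown because they are further products of these members, with the seed (bases 2 to 8) in capitals. The 4 seeds differ from each other.
miR-335-5p: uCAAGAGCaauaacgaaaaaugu
miR-335-3p: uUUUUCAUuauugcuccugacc
miR-675-5p: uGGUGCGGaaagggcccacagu
miR-675-3p: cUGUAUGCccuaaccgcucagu
RefSeq places miR-335-5p at chr6:30741314-30741336 on the plus strand and miR-675-5p at chr7:142577112-142577133 on the minus strand (GRCm38.p6). The library protocol selected polyadenylated RNA, which excludes mature microRNAs. The row for the Mir335 gene held 6 reads over all 10 libraries and the row for Mir675 held 0, so the host transcripts are what was measured.

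The members spanned the whole range of the table. Levels of different genes were compared per kilobase of the longest annotated transcript, as means over all 10 libraries of both groups. H19, a long noncoding RNA expressed from the maternal copy, was the most abundant member at a mean of 36930 normalised reads per kb, rank 12 of 14953 tested genes with a length. It took between 0.32% and 0.41% of all reads of a library. Peg3, a paternally expressed zinc-finger protein, followed at 1603 reads per kb, above 93.6% of tested genes. Mest, a paternally expressed protein of the endoplasmic reticulum with an alpha/beta-hydrolase fold, was at 283.2 reads per kb, above 62.3%. Cdkn1c, the maternally expressed cyclin-dependent kinase inhibitor p57, was at 132.9 reads per kb, below the median of 168.8. Its group means lay on either side of that median, at 93.6 in GFP and 172.2 in Arrdc2. Ndn, Grb10 and Plagl1 came next at 32.2, 18.5 and 9.94 reads per kb. In every library these 7 genes kept the order H19, Peg3, Mest, Cdkn1c, Ndn, Grb10, Plagl1.

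**Figure D1:**
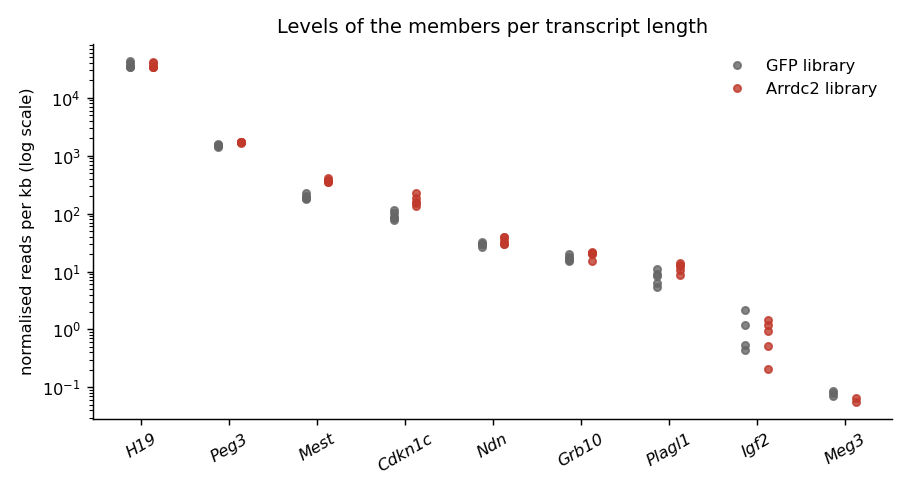
Levels of 9 members in normalised reads per kb of transcript (vertical axis, log scale) with a point for each of the 5 GFP (grey) and 5 Arrdc2 (red) libraries. H19 lies near 36930 reads per kb and Plagl1 near 9.94, and libraries with 0 reads of Igf2 or Meg3, as well as Dlk1 with 0 reads in every library, cannot be drawn on a log axis.

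The 3 other members fell below the minimum mean rlog of 3 and were not tested. Igf2, the paternally expressed growth factor that shares a domain and enhancers with H19, had a mean rlog of 2.03. It was read at 5.72, 2.54, 10.2, 2.08 and 0 normalised reads in GFP libraries 3 to 7 and at 4.39, 6.74, 5.72, 2.44 and 0.989 in Arrdc2 libraries 6, 7, 9, 10 and 11. The ranges overlapped, and 42 reads in all 10 libraries leave any difference of moderate size undetectable at this depth. Meg3, a maternally expressed long noncoding RNA, had a mean rlog below 0 and 5 reads in all. Dlk1, the paternally expressed transmembrane Notch-family protein of the same domain as Meg3, had 0 reads in 239.9 M, which allows a level of up to 0.0125 reads per M reads, taking 3 reads as the limit. H19 was thus among the most abundant transcripts in libraries in which its neighbour Igf2 was nearly unread. The submitters' notes name no counting tool or annotation, and whether so few reads reflect a low level of the Igf2 transcript was not tested. The members nearest to the minimum were Plagl1 above it, at a mean rlog of 5.70, and Igf2 below it.

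Mest was at 492.1, 539.1, 601.4, 490.8 and 477.0 normalised reads in GFP libraries 3 to 7. In Arrdc2 libraries 6, 7, 9, 10 and 11 it was at 1009, 966.3, 1092, 934.6 and 945.4. Every Arrdc2 library lay above every GFP library by a wide gap, from 601.4 to 934.6. The means were 520.1 ± 51.2 and 989.5 ± 64.0 (SD, n = 5 each), a 1.90-fold difference of normalised reads. On the deposited log2 scale, on which differences are shrunk towards 0, the difference was 0.59 ± 0.04 (SE). By size in either direction Mest ranked 21 of 15223 tested genes on that scale, so 20 genes with larger differences were all lower in the Arrdc2 libraries.

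Cdkn1c showed nearly the same ratio with a wider spread. It was at 198.0, 167.4, 216.5, 145.3 and 162.6 normalised reads in the GFP libraries and at 304.0, 288.1, 436.8, 259.7 and 348.1 in the Arrdc2 libraries, in the same library order. The groups did not overlap, and Arrdc2 library 9 was the highest. The means were 178.0 ± 28.7 and 327.3 ± 69.1 (SD, n = 5 each), 1.84-fold apart, and the log2 difference was 0.38 ± 0.06 (SE). It ranked 27 by positive difference on the deposited scale.

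Peg3 differed by little and varied little. It was at 12363, 13052, 13148, 13599 and 12937 normalised reads in the GFP libraries and at 15080, 14884, 15189, 14776 and 14305 in the Arrdc2 libraries. The groups did not overlap, although the means of 13020 ± 444.6 and 14847 ± 343.3 (SD, n = 5 each) were only 1.14-fold apart (log2 difference 0.15 ± 0.03 SE). Its coefficient of variation was 3.41% in GFP and 2.31% in Arrdc2, the lowest of the 7 tested members.

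Plagl1, a zinc-finger transcription factor expressed from the paternal copy, was read at 28.6, 57.1, 48.1, 44.6 and 33.2 normalised reads in the GFP libraries. The Arrdc2 libraries were at 73.8, 66.5, 56.3, 46.4 and 68.2. The groups overlapped, with 3 of the 5 Arrdc2 libraries above the highest GFP library. Means were 42.3 ± 11.5 and 62.2 ± 10.9 (SD, n = 5 each), 1.47-fold apart, whereas the shrunken log2 difference was 0.09 ± 0.03 (SE). Its place past the threshold was lost without GFP library 3, GFP library 7 or Arrdc2 library 6 (log2 difference 0.08 in each case).

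Grb10, an adaptor that restrains insulin and IGF receptor signalling, was at 100.7, 81.2, 87.0, 77.8 and 89.8 normalised reads in the GFP libraries and at 103.7, 108.9, 78.2, 100.1 and 106.8 in the Arrdc2 libraries. The ranges overlapped, with Arrdc2 library 9 close to the lowest GFP library and GFP library 3 within the range of the other Arrdc2 libraries. The means were 87.3 ± 8.85 and 99.5 ± 12.4 (SD, n = 5 each), a log2 difference of 0.05 ± 0.03 (SE). Ndn, a paternally expressed MAGE-family protein, was at 99.6, 110.4, 112.0, 111.0 and 120.9 in the GFP libraries and at 126.5, 108.9, 144.0, 147.4 and 109.8 in the Arrdc2 libraries. Arrdc2 libraries 7 and 11 lay within the GFP range and the other 3 above it. The means were 110.8 ± 7.56 and 127.3 ± 18.2, a log2 difference of 0.06 ± 0.03 (SE).

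H19 was at 80115, 91954, 98802, 78164 and 78218 normalised reads in the GFP libraries and at 76679, 79242, 89847, 94327 and 76880 in the Arrdc2 libraries. In each group 2 libraries stood higher than the rest, GFP libraries 4 and 5 and Arrdc2 libraries 9 and 10, and the groups overlapped. The means were 85451 ± 9413 and 83395 ± 8154 (SD, n = 5 each). The log2 difference was -0.03 ± 0.06 (SE), smaller than its error, and its sign turned with quantile normalization (0.04) and without GFP library 5 (0.02).

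**Figure D2:**
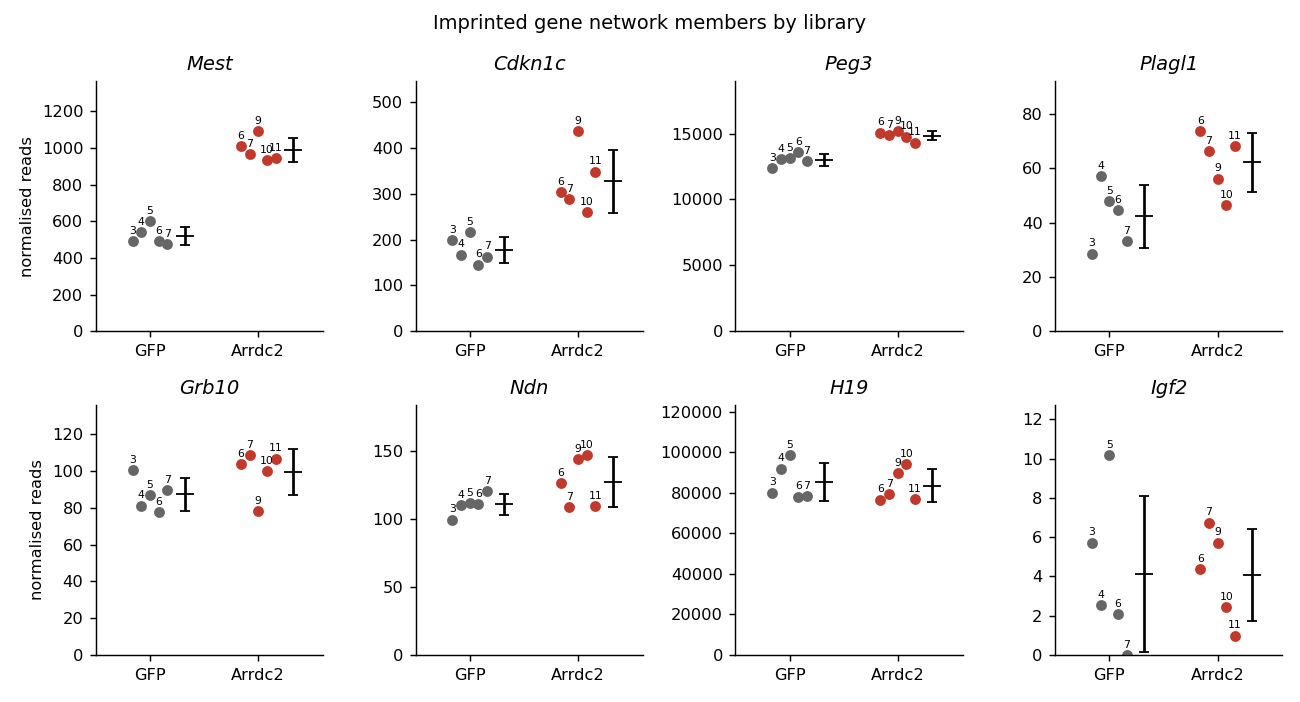
Normalised reads (vertical axis, linear, from 0) of 8 members in each of the 5 GFP (grey) and 5 Arrdc2 (red) libraries, numbered as in their columns, with the group mean and SD beside them. The groups are apart for Mest (477.0 to 601.4 against 934.6 to 1092), Cdkn1c and Peg3 and overlap for Plagl1, Grb10, Ndn, H19 and Igf2.

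Of the 7 tested members, 4 (Mest, Cdkn1c, Peg3 and Plagl1) were past the limma adjusted p threshold of 0.05, all higher in the Arrdc2 libraries. Of the 15223 tested genes, 30.3% were past it, made up of 14.5% higher and 15.8% lower. Groups did not overlap for 3 members, all higher. They did not overlap for 19.7% of tested genes in either direction and for 8.70% with the Arrdc2 libraries higher. The median log2 difference was 0.09 over the 7 members and 0.003 over all tested genes. Since the list was drawn up with this contrast known, nothing is read from these counts. Of all genes past the threshold, 47.9% were higher in Arrdc2 as deposited and 37.4% with each library centred on its median, a step that left the same 4 members past it.

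Within each group, several members had their extremes in the same library. Mest, Cdkn1c, H19 and Igf2 were highest in library 5 among the GFP libraries. Mest, Cdkn1c and Peg3 were highest in library 9 among the Arrdc2 libraries, the library in which Grb10 was lowest and the Arrdc2 gene highest. Over the 10 libraries, Pearson's r with Mest was 0.94 for Peg3, 0.92 for Cdkn1c, 0.75 for Plagl1, 0.57 for Ndn, 0.43 for Grb10 and 0.01 for H19. These values hold the difference between the groups as well as the spread within them. With each group's mean removed, r was 0.69 for Cdkn1c, 0.64 for H19, 0.39 for Plagl1, 0.37 for Peg3, 0.20 for Ndn and -0.52 for Grb10. All 10 points share their libraries' size factors, and r is given as a description.

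The genes most like Mest over the 10 libraries, by Pearson's r of the deposited values among 14952 tested genes with a symbol, were Ext1, Rcan3, Pcdh7, Them6 and Pam (r from 0.986 to 0.989). Ext1, a polymerase of heparan sulfate, was at 5322 ± 195.8 in GFP and 6467 ± 116.6 normalised reads in Arrdc2 (SD, n = 5 each). Rcan3, a regulator of calcineurin, was at 451.9 ± 27.0 and 629.0 ± 22.8. Pcdh7 is a protocadherin and Pam amidates peptide hormones, and they were 1.29-fold and 1.21-fold higher in Arrdc2. Them6, of the thioesterase superfamily, was 1.40-fold higher. Because r was taken over both groups and those of Mest lie far apart, a group difference in these genes follows from how they were picked. With each group's mean removed, their r with Mest ran from 0.647 (Pam) to 0.922 (Them6). The order rests on the measure, since 0 of these 5 genes were among the 5 most like Mest by Spearman's rho, and 0 by deviations from the group means.

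The list of other genes of the imprinted gene network held 18 genes, of which 11 were tested, 4 rose and 1 fell (45.5% past the threshold, against 30.3% of all tested genes). The median log2 difference was 0.05. Like the members, this list and the further lists below were chosen with earlier results of these data known, so nothing is read from their counts. Dcn, the matrix proteoglycan decorin, rose from 2628 ± 241.0 to 3517 ± 226.4 normalised reads (SD, n = 5 each), 1.34-fold (log2 difference 0.32 ± 0.04 SE, limma adjusted p = 1.97e-05). Its GFP libraries reached 2944 at most and its Arrdc2 libraries began at 3322. Peg10, a paternally expressed protein derived from a retrotransposon, rose from 576.3 ± 35.7 to 763.2 ± 107.2 (1.32-fold, limma adjusted p = 0.000989). Arrdc2 libraries 6, 7 and 9 were at 846.0, 827.6 and 846.9, while libraries 10 and 11 were at 622.0 and 673.4, the former below GFP library 5 at 625.5. Sgce, the epsilon-sarcoglycan that shares its promoter region with Peg10, rose from 520.5 ± 13.7 to 624.0 ± 53.8 (1.20-fold, limma adjusted p = 0.00272). Igf2r, the maternally expressed receptor that carries Igf2 to lysosomes, rose from 8673 ± 229.3 to 9716 ± 605.1 (1.12-fold, limma adjusted p = 0.00660), with no overlap of groups.

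Zdbf2, a paternally expressed zinc-finger gene, fell from 23.7 ± 4.98 to 14.4 ± 3.36 normalised reads (SD, n = 5 each), 1.64-fold lower (limma adjusted p = 0.0218). It did not pass with GFP library 3, GFP library 4 or Arrdc2 library 9 left out (limma adjusted p = 0.0615, 0.0507 and 0.0634), and over its 16 alternatives the limma adjusted p ran from 0.00655 to 0.0736. Nor did it pass with no filter on low values or no variance trend (limma adjusted p = 0.0718 and 0.0736). Of the 7 listed genes below the minimum, Magel2, Phlda2, Rtl1 and Mirg had 0 reads in every library, Nnat had 1 read, Rian 14 and Asb4 18.

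Of 56 other imprinted genes, 39 were tested, 8 rose and 4 fell (30.8%, against 30.3% of all tested genes), and the median log2 difference was 0.01. The largest difference was a fall. Kcnq1ot1, the paternally expressed antisense noncoding RNA known to silence Cdkn1c and its neighbours on the same chromosome, fell from 301.0 ± 35.0 to 195.0 ± 22.8 normalised reads (SD, n = 5 each). That is 1.54-fold lower (log2 difference -0.28 ± 0.04 SE, limma adjusted p = 4.93e-05), and the lowest GFP library, at 249.5, lay above the highest Arrdc2 library, at 225.4. Zim1, a maternally expressed zinc-finger gene beside Peg3, rose from 1093 ± 125.2 to 1404 ± 89.5 (1.28-fold, limma adjusted p = 0.000410) with no overlap. Impact, a paternally expressed inhibitor of the kinase Gcn2, fell from 3864 ± 66.6 to 3181 ± 89.7 (1.21-fold, limma adjusted p = 7.90e-06). Its GFP libraries ran from 3798 to 3966 and its Arrdc2 libraries from 3102 to 3304.

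Further rises in that list were Dhcr7, the last enzyme of cholesterol synthesis, from 1789 ± 78.2 to 2197 ± 288.0 normalised reads (SD, n = 5 each; limma adjusted p = 0.00333) and the tetraspanin Cd81, from 9642 ± 363.9 to 10986 ± 206.9 (limma adjusted p = 0.000564). Tspan32, another tetraspanin, was 1.16-fold higher (limma adjusted p = 0.00991) and the paraoxonase Pon3 1.15-fold higher (limma adjusted p = 0.0130). Cobl, an actin nucleator, was 1.14-fold lower (limma adjusted p = 0.00339). Pde10a, a cyclic nucleotide phosphodiesterase, was 1.17-fold higher (limma adjusted p = 0.0325). Pde10a did not pass when GFP library 3, 5 or 7 or Arrdc2 library 7 or 9 was left out (limma adjusted p from 0.0547 to 0.100), and its 17 alternatives ran from 0.0108 to 0.100. Nor did it pass with no filter on low values, quantile normalization or no variance trend (limma adjusted p = 0.0853, 0.0597 and 0.0542).

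**Figure D3:**
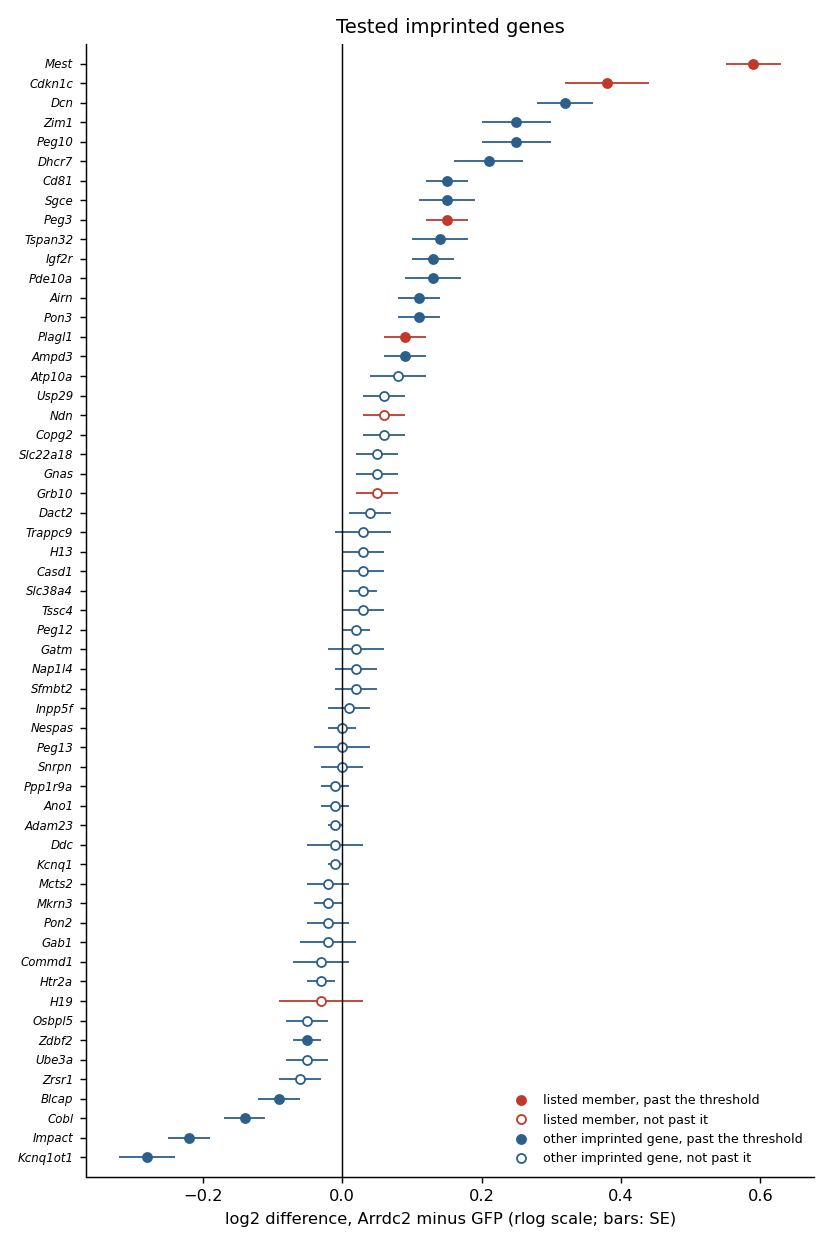
Log2 difference of Arrdc2 minus GFP on the deposited rlog scale (horizontal axis, linear, bars are SE) for the 7 tested members (red) and 50 other tested imprinted genes (blue), with filled points past the limma threshold. Mest at 0.59 lies farthest to the right and Kcnq1ot1 at -0.28 farthest to the left.

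Imprinted genes lie in domains that share a control region, and the tested genes were grouped by domain after their values had been seen. In the Kcnq1 domain, of 10 tested genes 4 were past the threshold and higher (Cdkn1c, Cd81, Tspan32 and Dhcr7) and 1 lower (Kcnq1ot1), where 14.5% of all tested genes were higher and 15.8% lower. As the grouping followed the values, nothing is read from the counts by domain. Cdkn1c and Kcnq1ot1 already lay apart between the groups in opposite directions, which fixed in advance that their ratio would not overlap. A link between the levels of Kcnq1ot1 and Cdkn1c was not tested. The ratio of Cdkn1c to Kcnq1ot1 reads lay between 0.462 and 0.794 in the GFP libraries and between 1.278 and 2.449 in the Arrdc2 libraries. These reads were not divided by transcript length. Per kb, mean levels were 93.6 for Cdkn1c and 3.23 for Kcnq1ot1 in GFP, and 172.2 and 2.09 in Arrdc2. Cdkn1c was thus the higher of the pair in both groups. Kcnq1 itself was low and not past the threshold (8.01 to 16.5 normalised reads in GFP and 8.58 to 14.9 in Arrdc2, limma adjusted p = 0.736). In the Peg3 domain, Peg3 and Zim1 were past the threshold and higher. Usp29, which starts beside Peg3 on the other strand, was at 83.1 ± 12.4 and 98.9 ± 10.1 (SD, n = 5 each; limma adjusted p = 0.120).

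Beside Mest lies Copg2, a coatomer subunit that overlaps the end of Mest on the opposite strand. Copg2 was at 2303, 2197, 2058, 2012 and 2225 normalised reads in the GFP libraries and at 2232, 2267, 2190, 2285 and 2407 in the Arrdc2 libraries. The ranges overlapped (log2 difference 0.06 ± 0.03 SE, limma adjusted p = 0.191), and the ratio of Mest to Copg2 reads went from between 0.214 and 0.292 to between 0.393 and 0.499. This ratio too was not divided by transcript length. The third gene of that cluster, Klf14, had 0 reads. The library kit marks strand, but how the counting used it is not stated in the labels. Reads of overlapping opposite genes, such as Mest and Copg2, Kcnq1ot1 and Kcnq1, or Airn and Igf2r, can therefore not be told apart with certainty.

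In the Igf2r domain, Airn, the antisense noncoding RNA of Igf2r, rose from 148.2 ± 15.3 to 182.8 ± 16.2 normalised reads (SD, n = 5 each; limma adjusted p = 0.0170), as did Igf2r. Airn did not pass with GFP library 3 or Arrdc2 library 7 left out (limma adjusted p = 0.0533 and 0.0501), and its alternatives ran from 0.00732 to 0.0671. The highest of these, also not past the threshold, came with quantile normalization. Around Peg10, 3 of 6 tested genes rose (Peg10, Sgce and Pon3), beside 14.5% of all tested genes. In the domain of Ndn and Snrpn 0 of 6 tested genes were past the limma threshold, beside 30.3% of all tested genes, with 1 of 6 at an unadjusted p under 0.05 and 0 by voom. In the domain of Grb10, of 3 tested genes 0 were past the threshold and higher and 1 lower (Cobl). Of all tested genes, 14.5% were higher and 15.8% lower. In the domain of H19 and Igf2, H19 was the single tested gene of 5, and in that of Dlk1 and Meg3 none of 6 genes reached the minimum, 3 of them with 0 reads.

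**Figure D4:**
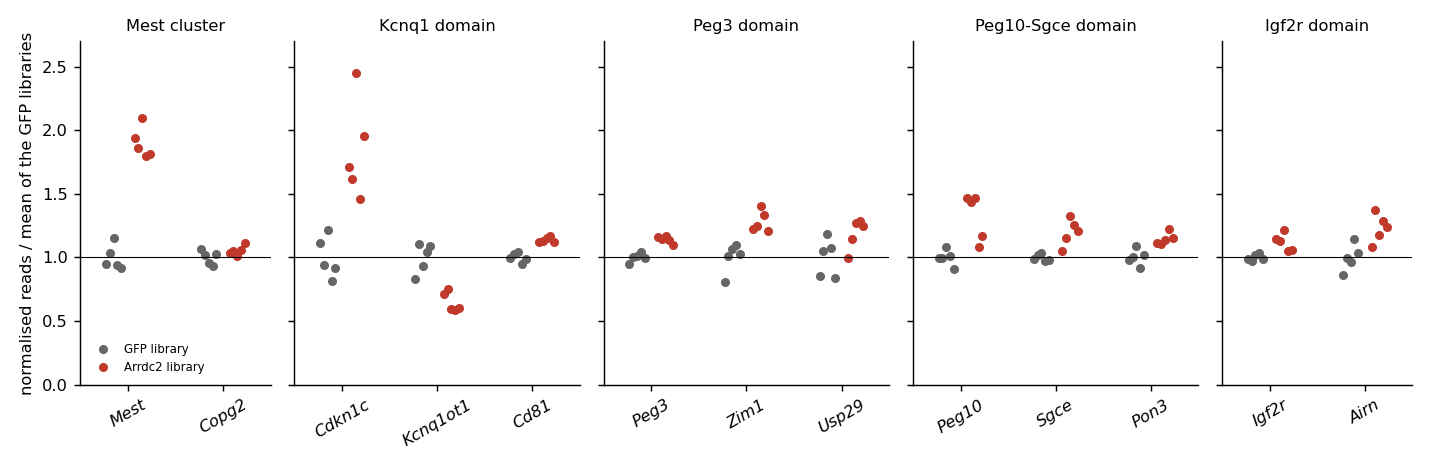
Normalised reads divided by the mean of the 5 GFP libraries (vertical axis, linear, from 0) for 13 genes of 5 imprinted domains, with a point for each GFP (grey) and Arrdc2 (red) library and a line at the GFP mean. Mest and Cdkn1c stand above their GFP libraries, Kcnq1ot1 below them, and Copg2 overlaps them.

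A list of 25 genes that keep imprints or act with Igf2 held 24 tested genes, of which 2 rose and 6 fell (33.3%, against 30.3% of all tested genes), with a median log2 difference of -0.03. Irs2, a docking protein of the insulin and IGF1 receptors, fell from 228.2 ± 10.2 to 156.3 ± 16.6 normalised reads (SD, n = 5 each), 1.46-fold (log2 difference -0.22 ± 0.03 SE, limma adjusted p = 5.38e-05). Igf2bp2, an RNA-binding protein that binds Igf2 messages, fell from 1447 ± 54.0 to 1193 ± 32.3 (limma adjusted p = 4.68e-05), and Igf1r, the receptor through which Igf2 signals, was 1.17-fold lower (limma adjusted p = 0.0105). Groups did not overlap for Irs2 and Igf2bp2.

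Among factors that maintain or read imprints, Dnmt1, the methyltransferase that copies CpG methylation at replication, rose from 2687 ± 115.8 to 3024 ± 99.4 normalised reads (SD, n = 5 each; limma adjusted p = 0.00290). Tet1, which oxidises methylated cytosine, rose from 98.1 ± 14.2 to 123.8 ± 10.5 (limma adjusted p = 0.0241). Tet1 did not pass when GFP library 3, 4 or 7 or Arrdc2 library 6 was left out (limma adjusted p from 0.0534 to 0.0666), and its alternatives ran from 0.00989 to 0.110. The highest of these, also not past the threshold, came with quantile normalization. Arid4b, a chromatin protein, was 1.20-fold lower (limma adjusted p = 0.000104), and Zfp445, a zinc-finger protein that protects imprints, 1.09-fold lower (limma adjusted p = 0.0134). Zfp445 did not pass with quantile normalization (limma adjusted p = 0.0970), the highest of its alternatives, which began at 0.00527. Yy1, a zinc-finger protein with binding sites in the Peg3 control region, was 1.15-fold lower (limma adjusted p = 0.0167). Yy1 did not pass with GFP library 6 left out (limma adjusted p = 0.0510) or with no filter on low values (limma adjusted p = 0.0653). Its alternatives ran from 0.000836 to 0.0653.

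The cultures carried muscle markers at high levels, with summed normalised reads of 10 myotube genes between 267511 and 291356 in GFP and between 248056 and 263439 in Arrdc2. Of these genes, 4 fell past the limma threshold (Acta1, Myh8, Mylpf and Casq1) and 0 rose. Ckm and Myh3 had small positive log2 differences (0.08 and 0.01) and Tnnt3, Myog, Tnni2 and Mybph negative ones, none past it. Of all tested genes, 14.5% were past the threshold and higher and 15.8% lower, shares that also stand beside the marker counts below. The marker counts were not tested as sets. In this single line, the name of a marker set does not mean that cells of that type were present. Myoblast markers, of which Pax7 and Myf5 rose and 0 of 6 fell, summed to 16539 to 21015 in GFP and 18692 to 20444 in Arrdc2. Fibroblast markers summed to 6418 to 7421 in GFP and to 8202 to 9156 in Arrdc2, without overlap, and of 5 tested Dpt, Pi16 and Ly6a rose. Ly6a held most of that sum (6755 ± 460.9 and 8341 ± 454.9, SD, n = 5 each), and Tcf21 was at or near 0. All 6 adipocyte markers were under 3 normalised reads in every library. Summed macrophage markers ran from 51.5 to 64.2 in GFP and from 64.3 to 81.7 in Arrdc2, most of it from Mrc1, which rose (means of 45.7 and 63.7), while the defining marker Ptprc averaged 1.38 and 0.751 reads. Endothelial markers summed to 51.8 to 72.1 and 79.8 to 95.4, with Tek and Cldn5 rising (limma adjusted p = 0.00578 and 0.0488). Pecam1, at means of 3.39 and 3.44, and Kdr, at 7.21 in GFP and 4.52 in Arrdc2, were not tested. The part of these marker differences in the levels of Mest, Cdkn1c, Dcn and the other imprinted genes was not tested. In such bulk samples fewer cells of a type and less RNA per cell cannot be told apart.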

How the data were processed

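Values were deposited by the authors as regularized logs (rlog, log2 scale), in which each library's deviation from a gene's mean is shrunk towards 0, most where reads are few. STAR 2.7.10a, DESeq2 1.30.1 and GRCm39 are named per the submitters' processing notes; no counting tool, annotation or strand setting is named there. Column numbers differ from the labels' replicate numbers, and columns served as unpaired replicates of their group. Symbols came from GENCODE vM21 (52029 of 57010 identifiers).

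The test was limma 3.58.1 (R 4.3.3) on the deposited log2 values (empirical Bayes with a trend, Benjamini-Hochberg over 15223 genes with a mean rlog of at least 3). In simulated data, 17 of 50 genes changed by 0.1 (log2) were called, 42 of 50 changed by 0.2, and 9 of 15023 unchanged genes. The simulation changed a far smaller share of genes than the 30.3% past the threshold here. It also drew noise independently for each gene and library, so its rates need not hold for these data. Whole reads were solved for from the penalised negative binomial fit behind rlog. In genes left out of the fit with a mean of at least 1 read, 98.9% of values fell within 0.1 of a whole number (20.0% by chance), but 77.8% above 10000 reads, so the reads of H19 and Peg3 are less exact. These reads gave depths and normalised reads, and limma voom on them was an alternative. Counting floors cover counting error only. Libraries of a group differed beyond sampling noise (chi-square per gene from 2.62 to 17.5), so all 10 were kept.

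Members and lists were chosen with earlier results of these data known. Named genes are all members, each further list's genes past the threshold up to 10 by size of difference, the 5 most like Mest, Copg2 and Arrdc2. Usp29, Kcnq1 and genes at 0 reads were named after their values were seen.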

Additional observations from a re-analysis of the deposited data

Results flagged for a closer look

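Within groups of 5, a library's gap to its nearest neighbour exceeded 0.71 of the group's range in 3 of 78 groups checked, where chance gives about 1 in 20. Grb10 was lowest in Arrdc2 library 9 at 78.2 normalised reads, with the next library at 100.1. Cobl was highest in Arrdc2 library 6 at 1556, with the next at 1392. Ext1 was highest among the GFP libraries in library 5 at 5664, with the next at 5288.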

How the results depend on the processing

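Alternatives were no filter on low values, a mean rlog of at least 5, median centring, quantile normalization, no variance trend, library weights, voom on recovered reads, and each library left out in turn. The log2 difference of Mest was 0.93 by voom, where reads are not shrunk, and 0.56 to 0.62 with a library left out. Among the genes most like Mest, 0 of 5 were kept by Spearman's rho (5 genes tied at a rho of 1) and 0 by deviations from the group means. Counts past the threshold stayed within 1.5 times: 3697 to 4931 over all genes (3920 to 4598 with a library left out), 3 to 4 of the members, 4 to 6 of the other network genes, 8 to 12 of the other imprinted genes and 6 to 9 of the partner genes. Plagl1 was the member that lost its place, with no filter, with quantile normalization and without GFP library 3, GFP library 7 or Arrdc2 library 6. The exact permutation p of the Arrdc2 gene, left-out libraries being added after seeing the data, ran from 0.0159 to 0.0476. Of 594 values for single genes, 24 lost the call among genes other than the members, besides the losses of Plagl1 just given. H19, which was not past the threshold, changed sign (-0.06 to 0.04), and the other single genes kept theirs. Voom, without the shrinkage, gave larger differences, such as 0.56 for Plagl1, -0.68 for Zdbf2 and -0.62 for Kcnq1ot1. The median log2 difference of all genes was 0.003 as deposited and between -0.011 and 0.010 under the other scalings. No paired analysis was possible because the columns carry no replicate number of the labels. Genes under about 10 reads cannot show moderate differences at this depth.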
